A study of Homo sapiens with 23 samples.

Results

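The 8 genes described here, RGS1, RGS2, RGS3, RGS10, RGS14, RGS16, RGS18 and RGS19, encode regulators of G protein signaling and were followed over the 8 groups of an array experiment on leukemia cells. HL-60 and OCI-AML3, established lines from acute myeloid leukemia (AML), were cultured with 40 µM CIGB-300 or left untreated for 30 min or 3 h. CIGB-300 is a synthetic peptide inhibitor of protein kinase CK2, an enzyme that phosphorylates many nuclear and signaling proteins. The groups were HL-60 cells with CIGB-300 and their untreated control at 30 min and at 3 h, and OCI-AML3 cells with CIGB-300 and their untreated control at the same times. Each group had 3 arrays, described as biological replicates, except untreated OCI-AML3 cells at 30 min with 2, since the authors had removed 1 array in quality control. Each line is a single cell population, so the replicates measure the spread between cultures of that line, and no inactive control peptide was analysed here.

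Expression was measured on Clariom S HT arrays, and each of the 8 genes had exactly 1 probe set among the 17709 that the annotation pairs with a single gene symbol and the 21448 tested. The family was chosen by results on these same arrays, namely the fold changes of RGS2, RGS14 and RGS18 after CIGB-300. For these 8 genes, changes with CIGB-300 and differences between them are therefore given as descriptions with no p for a single gene, and where the DEG thresholds are applied to them that is part of the description. Comparisons among untreated cells, and changes of other genes of the pathway, carry the adjusted p of limma. The untreated arrays also enter the changes on which RGS2, RGS14 and RGS18 were chosen. For these genes a p among untreated cells is therefore not independent of the choice. Values are log2 expression values as deposited, fold changes are on the log2 scale with their standard error (SE), and a differentially expressed gene (DEG) changed at least 1.5-fold with p below 0.01 before adjustment. In RNA from whole cultures, a smaller number of expressing cells and less RNA per cell cannot be told apart.

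G protein-coupled receptors at the cell surface, among them the receptors for chemokines, complement fragments and prostaglandins, act by loading GTP onto the alpha subunit of a heterotrimeric G protein. The signal lasts until that GTP is hydrolysed, and proteins of the RGS family bind the active alpha subunit and accelerate this step, so that they shorten the signal. Blood cells use several members, which differ in the alpha subunits they prefer and in the domains they carry beside the RGS domain. RGS1, RGS2, RGS3, RGS16 and RGS18 belong to the R4 subfamily, RGS10 and RGS14 to the R12 subfamily and RGS19 to the RZ subfamily.

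The start sites of RGS2, RGS14 and RGS18 are shown because these were the genes that met the DEG thresholds after CIGB-300. The sequences are the 250 bases before the RefSeq gene start on assembly GRCh38.p14, all on the plus strand: chr1:192808789-192809038 for RGS2, chr5:177357674-177357923 for RGS14 and chr1:192158212-192158461 for RGS18. Capitals mark matches to the motifs searched.
RGS2: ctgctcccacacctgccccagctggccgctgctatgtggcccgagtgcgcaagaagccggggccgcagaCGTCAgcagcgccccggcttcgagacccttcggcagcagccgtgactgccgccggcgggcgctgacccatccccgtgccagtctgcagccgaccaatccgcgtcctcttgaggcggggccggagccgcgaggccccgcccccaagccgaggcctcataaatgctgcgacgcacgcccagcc
RGS14: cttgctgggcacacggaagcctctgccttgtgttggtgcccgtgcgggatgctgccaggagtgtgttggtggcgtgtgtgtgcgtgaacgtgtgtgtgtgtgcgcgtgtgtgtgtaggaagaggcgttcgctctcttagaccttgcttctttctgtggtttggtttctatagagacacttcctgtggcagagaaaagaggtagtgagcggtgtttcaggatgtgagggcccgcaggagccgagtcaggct
RGS18: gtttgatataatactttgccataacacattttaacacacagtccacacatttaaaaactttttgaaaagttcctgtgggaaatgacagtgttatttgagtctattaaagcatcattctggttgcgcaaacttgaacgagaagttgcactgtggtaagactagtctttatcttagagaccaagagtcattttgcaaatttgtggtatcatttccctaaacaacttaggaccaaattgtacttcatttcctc
The RGS2 window was 72.8% G or C and held 28 CpG dinucleotides. That of RGS14 was 56.8% G or C with 13 CpG, and that of RGS18 was 34.8% with 2 CpG. Over 35116 windows of the same length the median was 58% G or C, so RGS2 lay above and RGS18 below it. Both strands were searched for the cAMP response element TGACGTCA, the AP-1 site TGANTCA, the EGR site GCGNGGGCG, the NR4A monomer site AAAGGTCA, the TATA box TATAAA, the PU.1 site GAGGAAGT and TGACG, a shorter form that the full cAMP response element contains. These letters were present in 1.65%, 6.57%, 8.41%, 1.05%, 10.7%, 2.17% and 21.2% of all windows in that order. RGS2 had a single match, to TGACG on the minus strand, 181 to 177 bases before the start. RGS14 and RGS18 had no match, which says only that these letters are not in these windows. RGS18, RGS1 and RGS2 lie near each other on chromosome 1, where the order of protein-coding genes is RGS18, RGS21, RGS1, RGS13 and RGS2.

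Most of the 8 genes were measured above the negative control features of the array. The 95th percentile of these 612 features lay between 4.32 and 4.98 on the 23 arrays, and the median of all probe sets lay between 5.38 and 5.60. RGS10, RGS14, RGS16, RGS18 and RGS19 were above both limits on all 23 arrays. RGS3 was above the negative limit on 22 arrays, RGS2 on 18 and RGS1 on 2. For RGS1 the values are therefore mostly within the range of negative controls. The myeloid identity of the cultures was visible in AZU1, a granule protein gene with its median at 11.44 in HL-60 and at 11.45 in OCI-AML3 cells, and in LYZ, the lysozyme gene, with 12.43 and 12.83 in the same order of lines. MPO, the myeloperoxidase gene, had its median at 13.06 in HL-60 and at 5.75 in OCI-AML3 cells. The T cell genes CD3D, CD3G and CD2, the B cell gene MS4A1 and the NK cell gene KLRD1 had medians under the negative limit in both lines, whereas CD3E, also of T cells, had its median at 5.29 in HL-60 and at 3.86 in OCI-AML3 cells. Of the other B cell genes, CD79A had its median at 10.70 in HL-60 and at 5.29 in OCI-AML3 cells, and CD79B at 4.89 and 4.83 in the same order. Of the other NK cell genes, NCAM1, an adhesion molecule, had its median at 5.55 in HL-60 and at 11.82 in OCI-AML3 cells, and NKG7, a granule protein, at 8.19 and 6.61. PF4 and PPBP, the platelet chemokines that mark megakaryocytes, where RGS18 is also known, had their medians at 4.80 and 2.89 in HL-60 cells and at 4.81 and 3.46 in OCI-AML3 cells. ITGA2B, an integrin gene of the same cells, had its median at 6.98 in HL-60 and at 5.11 in OCI-AML3 cells.

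**Figure D1:**
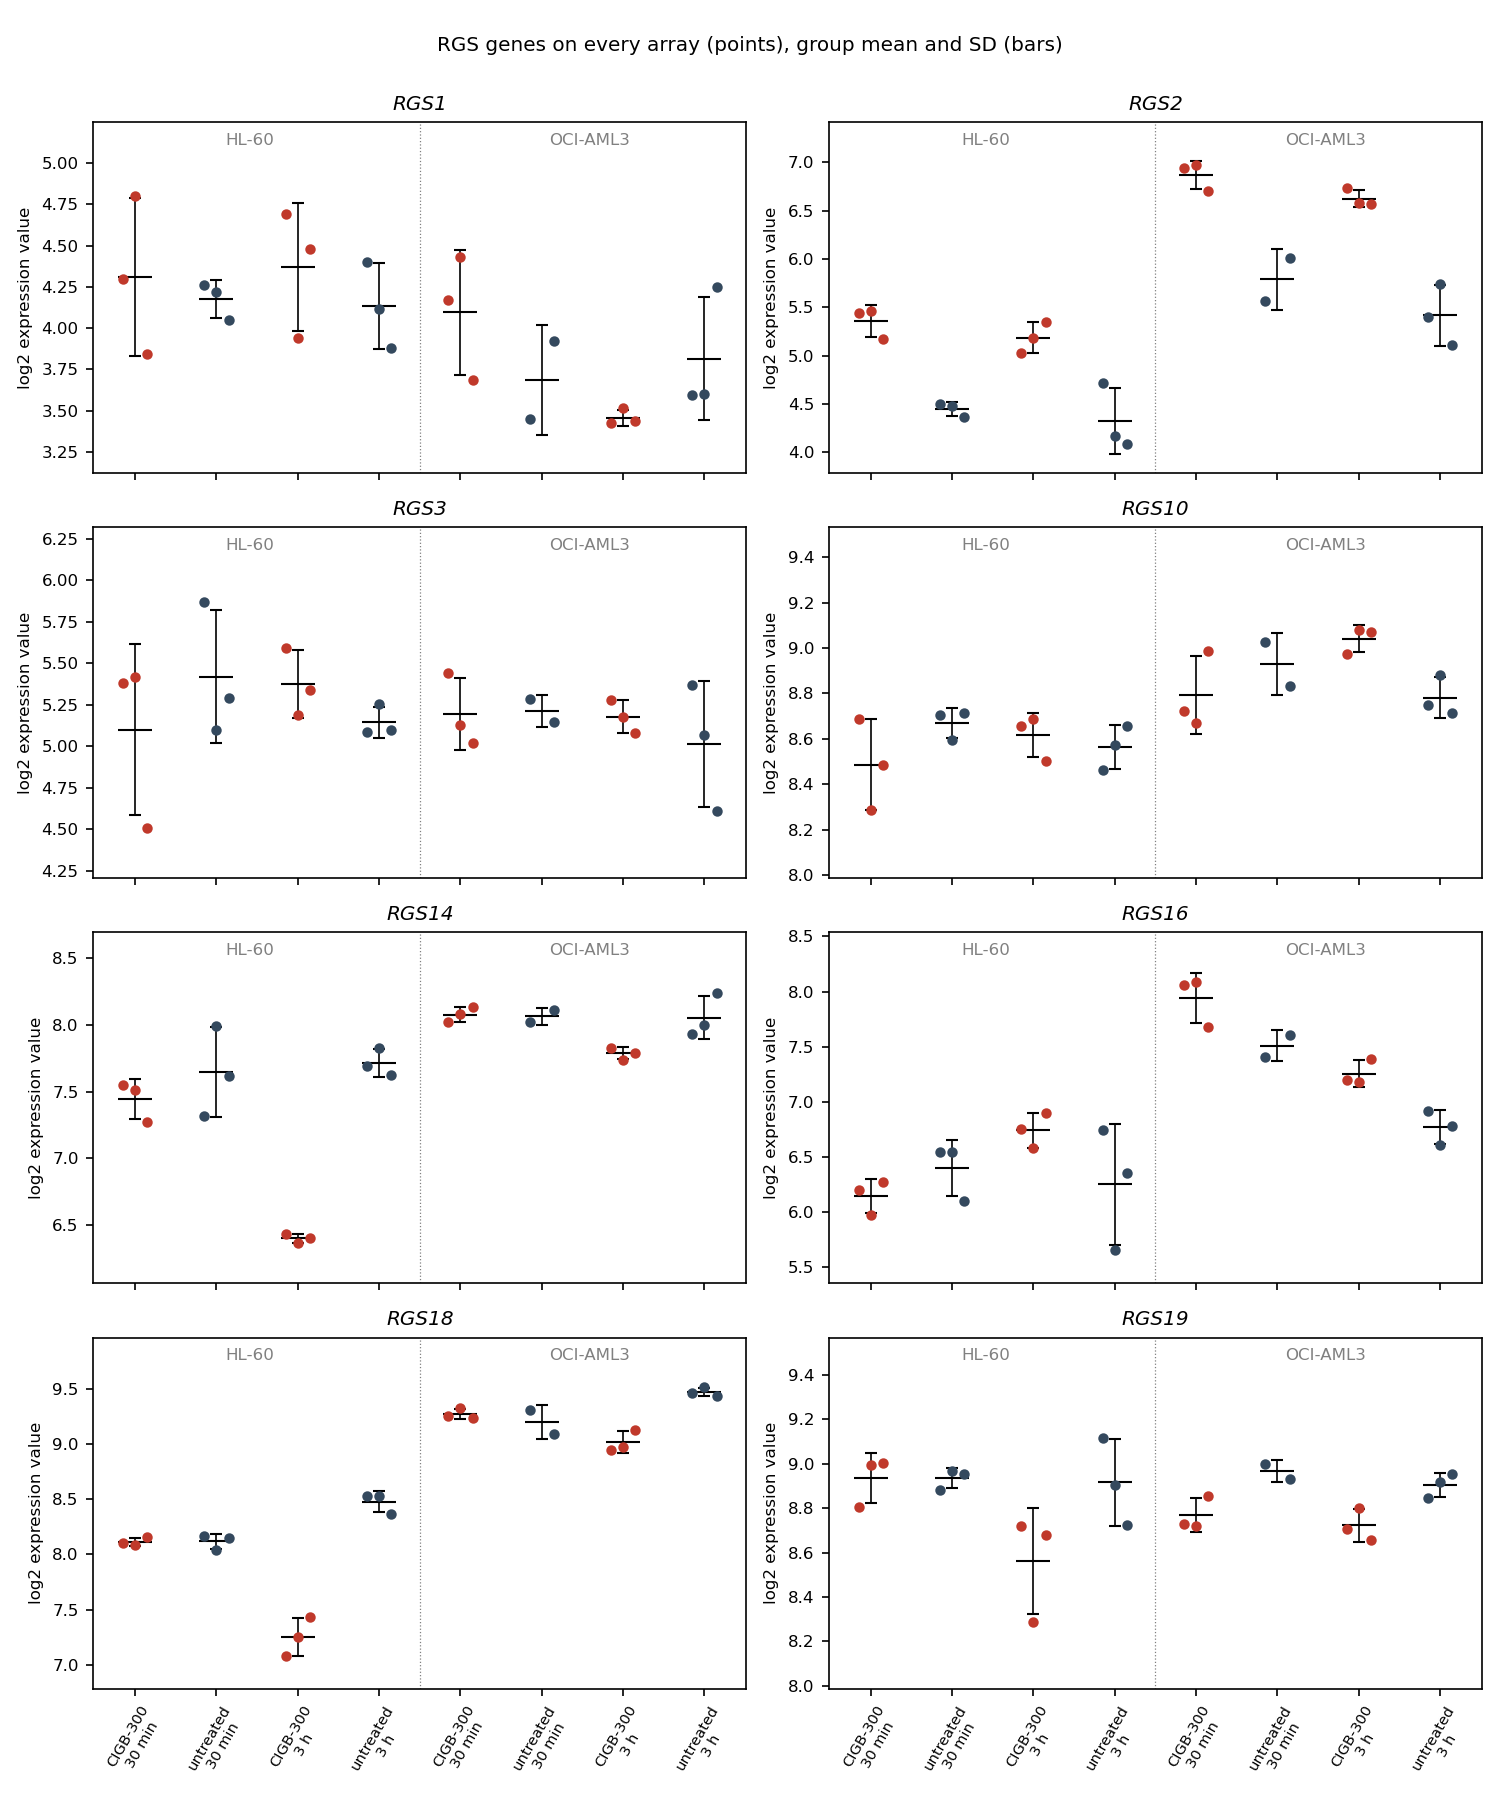
Log2 expression values of the 8 RGS genes on each of 23 arrays (red points, CIGB-300; dark points, untreated), with group mean and SD as bars, for HL-60 cells on the left and OCI-AML3 cells on the right of each panel; vertical scales differ between panels. RGS2 lies higher with CIGB-300 in all 4 pairs of groups, and RGS14 and RGS18 are lowest in HL-60 cells after 3 h with CIGB-300.

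RGS2 was higher with CIGB-300 in both lines and at both times. It preferentially accelerates GTP hydrolysis by the Gq alpha subunits and is known as an early response gene, transcribed soon after a stimulus. In HL-60 cells at 30 min RGS2 measured 5.44, 5.46 and 5.17 with CIGB-300, against 4.50, 4.48 and 4.36 in untreated cells. At 3 h the HL-60 values were 5.03, 5.18 and 5.35 with CIGB-300, against 4.71, 4.17 and 4.09 in untreated cells. The groups did not overlap at either time, with fold changes of 0.91 ± 0.17 at 30 min and 0.86 ± 0.17 at 3 h. All 3 untreated HL-60 arrays at 30 min, and 2 of 3 at 3 h, were under the negative limit. Set against that limit, RGS2 was at least 1.63-fold higher with CIGB-300 at 30 min, whereas the measured means of 5.36 and 4.44 gave 1.88-fold. At 3 h, where 1 untreated array was above the limit, the same calculation gave 1.44-fold, which is under the 1.5-fold limit. The measured means of 5.19 and 4.32 gave 1.82-fold. The negative limit itself was higher on the treated arrays at 3 h, at 4.83, 4.89 and 4.98, against 4.69, 4.62 and 4.65 on the untreated arrays. The calculation leaves this out, so that 1.44-fold is no strict lower bound.

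In OCI-AML3 cells RGS2 measured 6.94, 6.97 and 6.71 with CIGB-300 at 30 min, against 5.57 and 6.01 in untreated cells. After 3 h it measured 6.73, 6.57 and 6.57 with CIGB-300, against 5.40, 5.74 and 5.12 in untreated cells. No treated array overlapped an untreated one, and the fold changes were 1.08 ± 0.19 at 30 min and 1.21 ± 0.17 at 3 h, or 2.12 and 2.31 times the untreated level. For the 3 untreated OCI-AML3 arrays at 3 h the titles read 30 h, a time that the array experiment did not include. Their time label reads 3 h and was followed here, and the untreated cells at 30 min are separate arrays. Where the cells at 30 min replace those at 3 h as the control, here and below, the control is not matched in time. With that control the fold change of RGS2 at 3 h was 0.84 ± 0.19 and still met the DEG thresholds. By its measured values RGS2 met the DEG thresholds in all 4 comparisons of CIGB-300 with untreated cells, although in HL-60 cells at 3 h the fold change set against the negative limit was too small.

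The changes of RGS2 in HL-60 cells are measured against untreated arrays that mostly lay under the negative limit, so that their size, and any difference that contains it, is uncertain by more than the intervals show. By measured values, the change in HL-60 cells minus that in OCI-AML3 cells was -0.17 at 30 min, with a 95% confidence interval from -0.71 to 0.37. At 3 h this difference was -0.34, with an interval from -0.85 to 0.16. The change at 3 h minus that at 30 min was -0.05 in HL-60 cells (interval -0.56 to 0.46) and 0.12 in OCI-AML3 cells (interval -0.42 to 0.66). With the dim untreated arrays at the limit, the changes in HL-60 cells were at least 0.70 at 30 min and came to 0.53 at 3 h. The value at 3 h is no strict lower bound, since the limit was higher on the treated arrays.

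RGS14 was lower with CIGB-300 in HL-60 cells at 3 h. It is a scaffold that carries an RGS domain, Ras-binding domains and a GoLoco motif, which holds inactive Gi alpha subunits. At 3 h RGS14 measured 6.44, 6.37 and 6.41 with CIGB-300, against 7.69, 7.82 and 7.62 in untreated HL-60 cells. The groups lay more than 1 log2 unit apart with a spread of 0.04 (SD) in treated cells and of 0.10 in untreated cells, and the fold change was -1.31 ± 0.13, or 0.404 times the untreated level. Earlier, at 30 min, RGS14 measured 7.55, 7.51 and 7.27 with CIGB-300, against 7.32, 7.99 and 7.62 in untreated HL-60 cells. These groups overlapped, with a fold change of -0.20 ± 0.13.

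In OCI-AML3 cells RGS14 did not meet the thresholds at either time. Its values at 30 min were 8.02, 8.08 and 8.13 with CIGB-300, against 8.02 and 8.11 in untreated cells, with a fold change of 0.01 ± 0.15. At 3 h they were 7.83, 7.74 and 7.79 with CIGB-300, against 7.93, 7.99 and 8.24 in untreated cells. The groups at 3 h did not overlap, and the fold change was -0.27 ± 0.13. The HL-60 change at 3 h minus the OCI-AML3 change was -1.04 ± 0.18, and the HL-60 change at 3 h minus that at 30 min was -1.11 ± 0.18, and both differences met the DEG thresholds.

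RGS18 had a similar profile. It acts on Gi and Gq alpha subunits and is known from platelets, megakaryocytes and other blood cells. In HL-60 cells at 3 h it measured 7.09, 7.25 and 7.43 with CIGB-300, against 8.53, 8.53 and 8.37 in untreated cells. The fold change was -1.22 ± 0.094, or 0.430 times the untreated level, with no overlap. At 30 min RGS18 measured 8.10, 8.09 and 8.16 with CIGB-300, against 8.17, 8.04 and 8.15 in untreated HL-60 cells, groups that overlapped with equal means of 8.12. The interval of that early change ran from -0.20 to 0.19.

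RGS18 in OCI-AML3 cells measured 9.25, 9.33 and 9.24 with CIGB-300 at 30 min, against 9.31 and 9.09 in untreated cells. At 3 h it measured 8.94, 8.97 and 9.13 with CIGB-300, against 9.46, 9.51 and 9.44 in untreated cells. The later groups did not overlap, but the fold change of -0.45 ± 0.094 was under the 1.5-fold limit. With the untreated cells at 30 min in place of those at 3 h it was -0.19 ± 0.10, a smaller value by more than 1.5 times. The HL-60 change at 3 h minus the OCI-AML3 change was -0.76 ± 0.13, and the HL-60 change at 3 h minus that at 30 min was -1.22 ± 0.13, and both met the DEG thresholds. In OCI-AML3 cells the change at 3 h minus that at 30 min was -0.53 ± 0.14, which did not, although it did so at -0.64 without replicate 2 of the untreated cells at 30 min.

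RGS16 and RGS1, also of the R4 subfamily, did not reach the thresholds with CIGB-300. RGS16 acts on Gi and Gq alpha subunits and restrains the migration of lymphocytes. In HL-60 cells it measured 6.75, 6.58 and 6.90 with CIGB-300 at 3 h, against 6.74, 5.65 and 6.36 in untreated cells, with a fold change of 0.49 ± 0.20. The groups overlapped through untreated replicate 1 at 6.74. Leaving out single arrays moved the fold change between 0.19, without untreated replicate 2, and 0.74, without untreated replicate 1, where it met the thresholds. At 30 min the HL-60 values were 6.20, 5.97 and 6.27 with CIGB-300, against 6.54, 6.55 and 6.10 in untreated cells, with a fold change of -0.25 ± 0.20. The change at 3 h minus that at 30 min was 0.74 ± 0.29, which met the thresholds without untreated replicate 3 at 30 min (0.89) or untreated replicate 1 at 3 h (0.99).

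In OCI-AML3 cells RGS16 measured 8.06, 8.09 and 7.68 with CIGB-300 at 30 min, against 7.41 and 7.61 in untreated cells. Its values at 3 h were 7.20, 7.18 and 7.39 with CIGB-300, against 6.92, 6.61 and 6.78 in untreated cells. The treated arrays lay above the untreated ones at both times, with fold changes of 0.43 ± 0.23 and 0.49 ± 0.20 that were under the limit. With the untreated cells at 30 min as the control at 3 h, the second value turned to -0.25 ± 0.23. RGS1, known from B and T cells, where it limits responses to chemokines, had fold changes from -0.36 ± 0.25 in OCI-AML3 cells at 3 h to 0.41 ± 0.28 in the same line at 30 min, and that at 3 h was -0.23 ± 0.28 with the untreated cells at 30 min as the control. All its 23 values lay between 3.42 and 4.80.

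RGS3, RGS10 and RGS19 stayed within narrow ranges over the 8 groups. RGS3, a larger R4 protein that acts on Gi and Gq alpha subunits, measured between 4.50 and 5.87, and every pair of neighboring groups in the order of its means overlapped. Its fold changes with CIGB-300 ran from -0.32 ± 0.23 in HL-60 cells at 30 min to 0.23 ± 0.23 in HL-60 cells at 3 h. RGS10, a small protein known from macrophages and microglia that acts on Gi alpha subunits, measured between 8.29 and 9.08. In OCI-AML3 cells at 3 h it was 8.97, 9.08 and 9.07 with CIGB-300, against 8.75, 8.88 and 8.71 in untreated cells, with a fold change of 0.26 ± 0.11 that was under the limit. With the untreated cells at 30 min as the control it was 0.11 ± 0.12, smaller by more than 1.5 times.

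RGS19, which acts on Gi and Gz alpha subunits, measured between 8.29 and 9.12. In HL-60 cells at 3 h it was 8.72, 8.29 and 8.68 with CIGB-300, against 9.12, 8.91 and 8.72 in untreated cells. Both groups had a value that rounds to 8.72, the untreated one being higher by less than 0.01, and the fold change was -0.36 ± 0.11, under the limit. In the other 3 comparisons its fold changes lay between -0.20 and 0.00. In OCI-AML3 cells the treated arrays lay below the untreated ones at both times, with -0.20 ± 0.13 at 30 min and -0.18 ± 0.11 at 3 h.

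**Figure D2:**
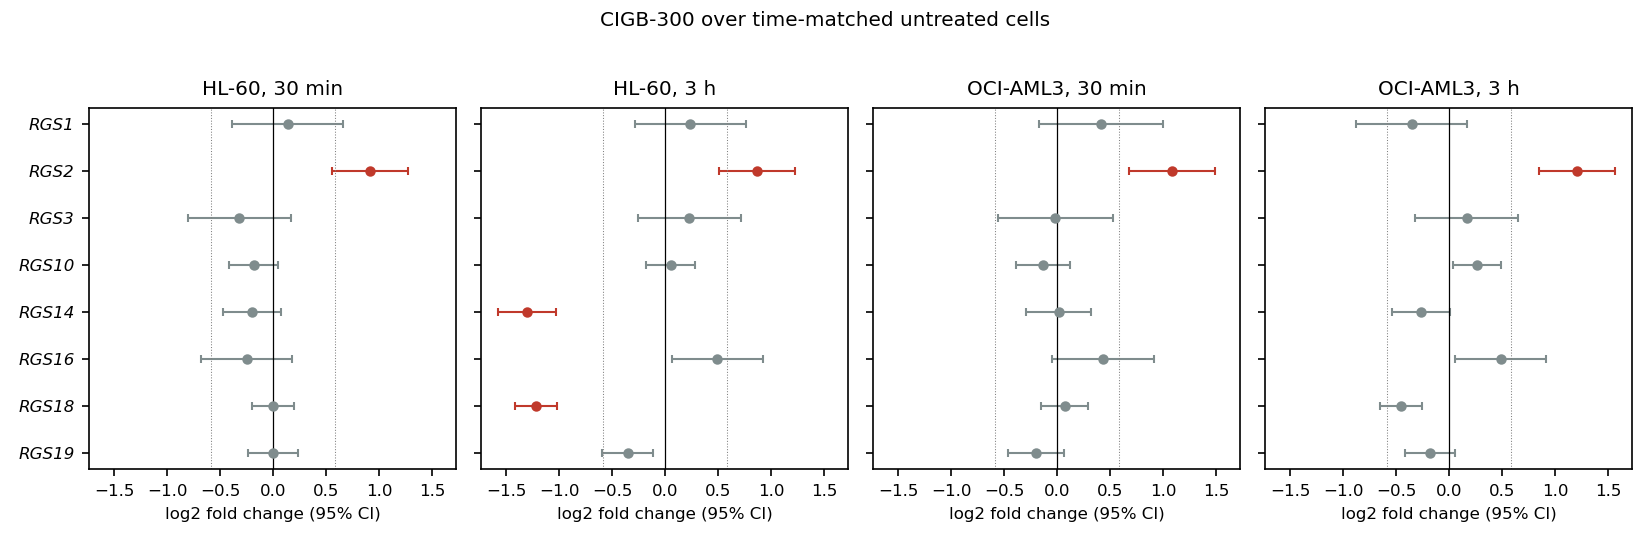
Log2 fold changes of the 8 RGS genes with CIGB-300 over time-matched untreated cells, with 95% confidence intervals, for both lines and times; red points are DEGs and dotted lines mark a 1.5-fold change. RGS2 lies right of the limit in all 4 panels, and RGS14 and RGS18 lie left of it in HL-60 cells at 3 h.

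Counted over the family, 1 of the 8 genes was a DEG in HL-60 cells at 30 min, where 0.877% of all 21448 probe sets were. At 3 h it was 3 of 8 in HL-60 cells, 1 higher and 2 lower, against 3.87% of all probe sets. For OCI-AML3 cells it was 1 of 8 at 30 min, against 1.07%, and 1 of 8 at 3 h, against 1.60%. As these contrasts were used in choosing the genes, nothing is read from the counts. The median fold change of the 8 genes was -0.093 at 30 min and 0.14 at 3 h in HL-60 cells, and 0.042 and -0.0095 in OCI-AML3 cells, beside medians over all probe sets between -0.029 and 0.00069. RGS2 and the pair RGS14 and RGS18 changed in opposite directions, but the family was chosen on these changes, so this is a description only.

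Between lines, the difference of the CIGB-300 changes met the thresholds for 0 of 8 genes at 30 min, where 1.39% of all probe sets did, and for 2 of 8 at 3 h, where 2.98% did. Between times, it did so for 2 of 8 in HL-60 cells, where 3.24% did, and for 0 of 8 in OCI-AML3 cells, where 2.18% did. By limma with an unadjusted p under 0.05 alone, the counts of 0 became 1 for the lines at 30 min and 2 for the times in OCI-AML3 cells. Nothing is read from these, as the share of all probe sets at that p was not computed. In both counts of 2 by the DEG thresholds the genes were RGS14 and RGS18, and in the count of 2 by p alone they were RGS10 and RGS18. The difference for RGS16 between lines at 30 min was -0.68 ± 0.31, with an interval from -1.33 to -0.04, and did not meet the p limit.

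**Figure D3:**
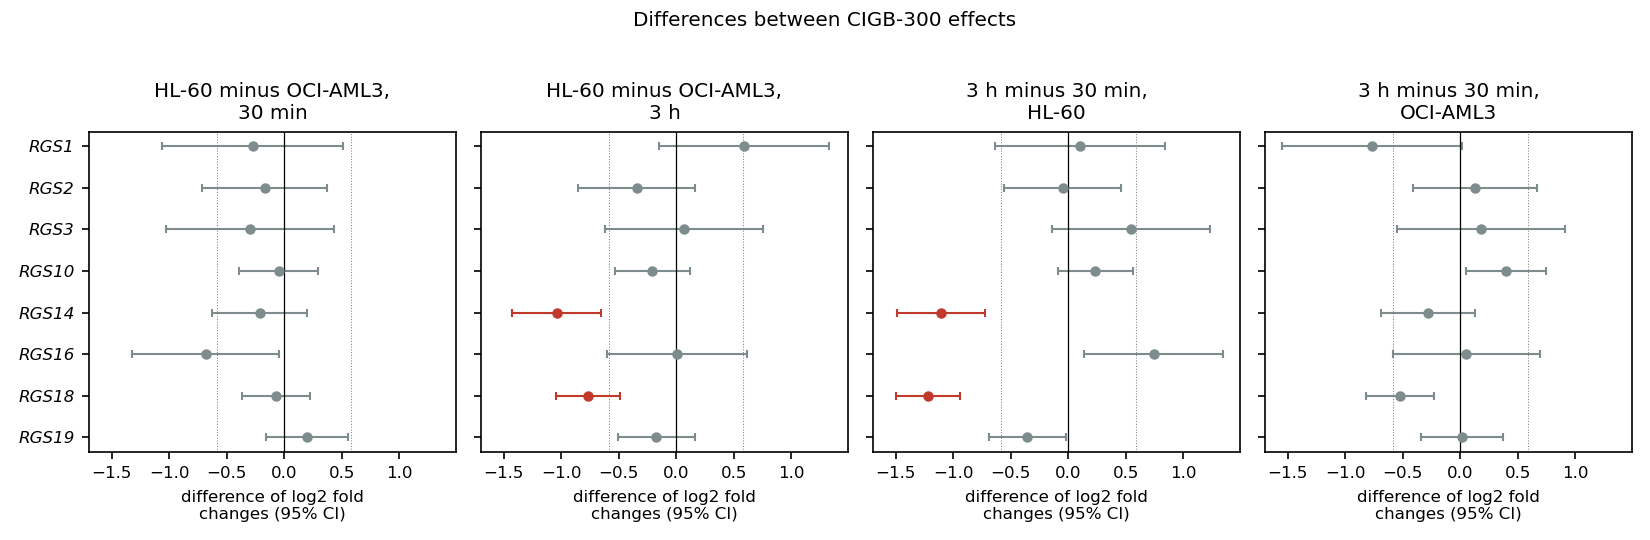
Differences between the CIGB-300 changes of the 8 RGS genes (log2, with 95% confidence intervals), HL-60 minus OCI-AML3 cells at each time and 3 h minus 30 min in each line; red points met the DEG thresholds. RGS14 and RGS18 lie at -1.04 and -0.76 for the lines at 3 h and at -1.11 and -1.22 for the times in HL-60 cells.

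Without peptide, the lines differed in the levels of RGS2, RGS16 and RGS18. At 30 min 3 of the 8 genes were DEGs, all lower in HL-60 than in OCI-AML3 cells, where 24.1% of all probe sets differed between the lines. RGS2 differed by -1.34 ± 0.19 (limma, adjusted p = 1.28e-05), and was at least 2.20-fold lower in HL-60 cells when these are set to the negative limit. RGS18 differed by -1.08 ± 0.10 (limma, adjusted p = 8.63e-08) and RGS16 by -1.11 ± 0.23 (limma, adjusted p = 0.000644). For all of these the arrays of the lines did not overlap. As the untreated arrays also enter the changes on which RGS2, RGS14 and RGS18 were chosen, their p among untreated cells is a description.

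At 3 h 2 of the 8 genes were DEGs between untreated lines, against 25.0% of all probe sets. RGS2 differed by -1.09 ± 0.17 (limma, adjusted p = 3.27e-05), and with the 2 dim HL-60 arrays set to the negative limit it was at least 1.69-fold lower in HL-60 cells. RGS18 differed by -0.99 ± 0.094 (limma, adjusted p = 4.91e-08). RGS16 differed by -0.52 ± 0.20 (limma, adjusted p = 0.0517), with overlapping arrays, and became a DEG at -0.76 without HL-60 replicate 1. RGS14 did not overlap between the lines either, at -0.42 ± 0.15 at 30 min (limma, adjusted p = 0.0312) and -0.34 ± 0.13 at 3 h (limma, adjusted p = 0.0449), both under the 1.5-fold limit. The value at 30 min was -0.59, past both limits, without HL-60 replicate 2. RGS1, RGS3, RGS10 and RGS19 had differences between -0.26 and 0.49 that did not meet the thresholds. Among these, the arrays of the lines did not overlap for RGS10 at both times and for RGS1 at 30 min. With shares of 24.1% and 25.0% of all probe sets, a difference between the lines was common on the array. The differences at 3 h rest on the time label of the untreated OCI-AML3 arrays, whose titles read 30 h, a time not in the array experiment.

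Time in culture without peptide gave 0 DEGs among the 8 genes in HL-60 cells, where 1.5% of all probe sets were DEGs between 3 h and 30 min. RGS18 was nearest, with 8.53, 8.53 and 8.37 at 3 h, against 8.17, 8.04 and 8.15 at 30 min. The difference was 0.36 ± 0.094 (limma, adjusted p = 0.0836). It was the 1 gene of the 8 with an unadjusted p under 0.05, and the share of all probe sets at that p was not computed. In OCI-AML3 cells 1 of 8 was a DEG, against 2.01% of all probe sets. This was RGS16, with 6.92, 6.61 and 6.78 at 3 h, against 7.41 and 7.61 at 30 min, a difference of -0.74 ± 0.23 (limma, adjusted p = 0.153). The arrays did not overlap, but the call was lost without replicate 2 or 3 at 30 min (-0.84 and -0.64) and without replicate 2 at 3 h (-0.66). By limma with an unadjusted p under 0.05 alone it was 2 of 8 in OCI-AML3 cells, RGS16 and RGS18, and nothing is read from this count. RGS18 was higher at 3 h there too, by 0.27 ± 0.10 (limma, adjusted p = 0.299), without overlap and under the 1.5-fold limit. The comparison in OCI-AML3 cells also rests on arrays taken as 3 h by their time label, whose titles read 30 h.

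Ordered by group mean, RGS2 was highest in OCI-AML3 cells with CIGB-300, at 6.87 ± 0.14 at 30 min and 6.63 ± 0.09 at 3 h (SD, n = 3 each), with overlapping arrays. A gap separated these from untreated OCI-AML3 cells, at 5.79 ± 0.32 (n = 2) at 30 min and 5.42 ± 0.31 (n = 3) at 3 h. HL-60 cells with CIGB-300 followed at 5.36 ± 0.16 at 30 min and 5.19 ± 0.16 at 3 h. Their arrays overlapped with those of untreated OCI-AML3 cells at 3 h and lay below those at 30 min. A further gap led to untreated HL-60 cells at 4.44 ± 0.07 and 4.32 ± 0.34. For RGS18 every OCI-AML3 array, treated or not, lay above every HL-60 array, and HL-60 cells with CIGB-300 at 3 h came last at 7.26 ± 0.17 (SD, n = 3), below a gap. RGS14 had the same last group at 6.40 ± 0.04 (SD, n = 3), also below a gap, while treated OCI-AML3 cells at 3 h overlapped with untreated HL-60 cells.

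Across the 8 group means, RGS14 and RGS18 correlated with r = 0.93, and RGS2 and RGS16 with r = 0.85, as descriptions over 8 points that share lines and times. Among 4588 probe sets with a single symbol whose group means spanned at least 1 log2 unit, those most like RGS2 were ZFP36, which encodes a factor of mRNA decay, with r = 0.97, COQ10B, of coenzyme Q function, with r = 0.95, and FOSL1, a subunit of AP-1, with r = 0.95. ZFP36 was a DEG in all 4 comparisons, with fold changes of 1.17 ± 0.098 at 30 min and 0.71 ± 0.098 at 3 h in HL-60 cells and of 1.21 ± 0.11 and 0.61 ± 0.098 in OCI-AML3 cells. FOSL1 was a DEG in HL-60 cells at both times, at 0.70 ± 0.11 and 0.89 ± 0.11, with 0.29 ± 0.13 and 0.54 ± 0.11 in OCI-AML3 cells, and the difference between lines was not tested for it here. COQ10B was a DEG in none. These genes were picked for their likeness to RGS2, so their changes are part of the same description.

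The genes most like RGS14 were GRAMD4 (r = 0.99), P2RY6, a receptor for uridine diphosphate (r = 0.98), and ASB13, of a family of ubiquitin ligase adaptors (r = 0.98). Those most like RGS18 were AMACR, a racemase of branched fatty acids (r = 0.99), FES, a tyrosine kinase of myeloid cells (r = 0.99), and RNF122, a RING finger protein (r = 0.99). All 6 were DEGs after 3 h in HL-60 cells and not in the other 3 comparisons, with fold changes between -1.31 ± 0.16 for ASB13 and -0.68 ± 0.14 for RNF122. As they were picked for their likeness to RGS14 and RGS18, this is part of the same description.

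**Figure D4:**
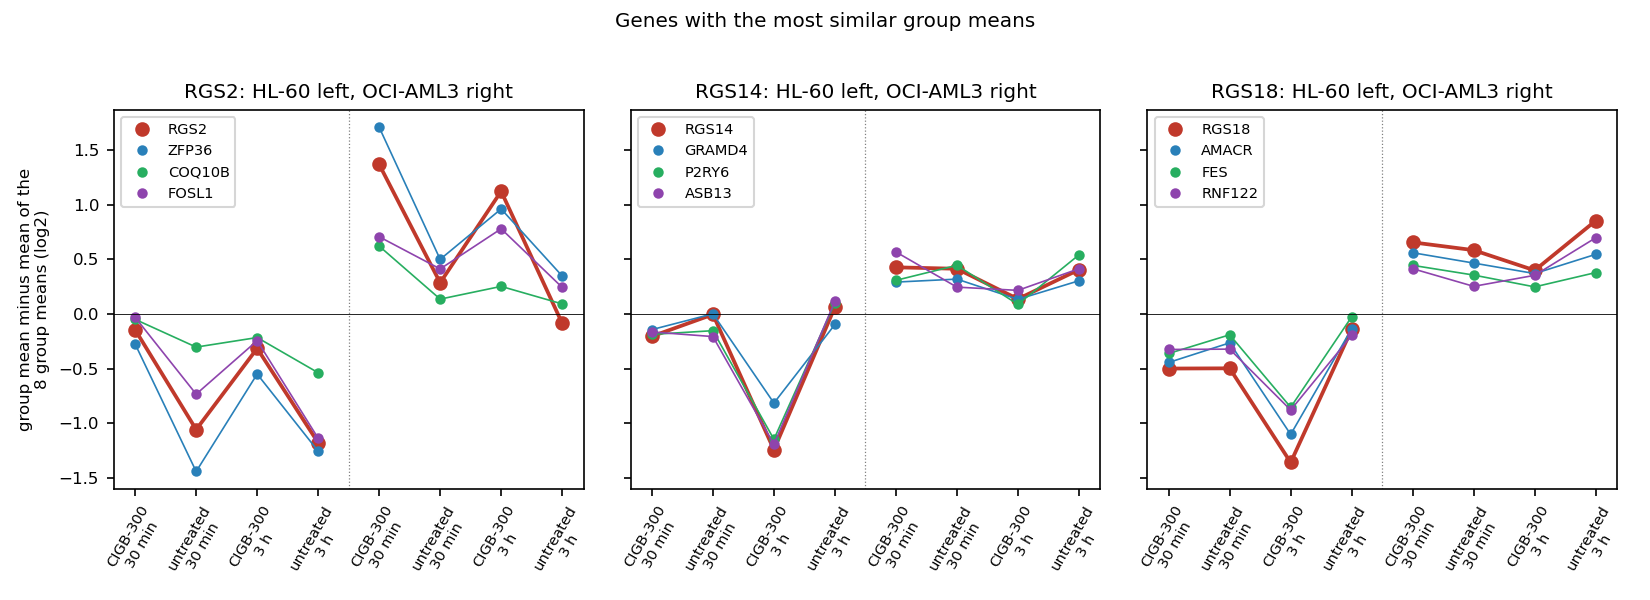
Group means, each minus the gene's own mean over the 8 groups (log2), of RGS2, RGS14 and RGS18 (red) and of the 3 genes with the most similar group means, HL-60 cells left and OCI-AML3 cells right; lines only join groups of a line. The RGS14 and RGS18 panels share a low point in HL-60 cells with CIGB-300 at 3 h.

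Of 16 further genes, of the RGS family or of proteins that bind its members, 15 had a probe set. In each of the 4 comparisons with CIGB-300 0 of 15 were DEGs, with fold changes between -0.70 and 0.47. As 0.877% to 3.87% of all probe sets were DEGs in these comparisons, a count of 0 in 15 is near the background. Between untreated lines, 3 of the 15 were DEGs at 30 min and 2 at 3 h, beside the 24.1% and 25.0% of all probe sets. The value of -0.70 ± 0.32 belonged to RGS12, the relative of RGS14 with the same kinds of domains, in HL-60 cells at 3 h (limma, adjusted p = 0.258). In that comparison 3 of the 15 had an unadjusted p under 0.05 in limma, and 0 did in the other 3. Without the share of all probe sets at that p, which was not computed, nothing is read from these counts. Of these 15 genes, only RGS12, RGS7BP and RGS9BP were above the negative limit on more than 2 arrays. The last 2 encode proteins that bind RGS proteins and are not RGS proteins themselves. Among 19 measured genes of proteins with an RGS homology domain or a GoLoco motif, 1 was a DEG, GPSM2, whose GoLoco motifs bind Gi alpha subunits as that of RGS14 does. It measured 6.15 ± 0.36 with CIGB-300 and 6.88 ± 0.11 in untreated HL-60 cells at 3 h (SD, n = 3 each), a fold change of -0.73 ± 0.16 (limma, adjusted p = 0.00889).

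Among the G proteins on which the RGS genes act, counts of DEGs were at most 1 per list and comparison, and nothing is read from them beside the same shares of all probe sets. None of 16 alpha subunit genes was a DEG in any of the 4 comparisons with CIGB-300 under these thresholds. An unadjusted p under 0.05 in limma was found for 0 of them at 30 min and 5 at 3 h in HL-60 cells. In OCI-AML3 cells it was found for 1 at 30 min and 3 at 3 h. The share of all probe sets at that p was not computed, so nothing is read from these counts. Of 17 beta and gamma subunit genes, GNG7 fell in HL-60 cells at 3 h by 0.88 ± 0.23 (limma, adjusted p = 0.0264), and GNG8 in OCI-AML3 cells at 30 min had -0.70 ± 0.16 (limma, adjusted p = 0.155). Of 17 effector genes, PIK3R5 and PIK3CG were DEGs in HL-60 cells at 3 h, in opposite directions. They encode a regulatory and the catalytic subunit of a phosphoinositide kinase that beta and gamma subunits activate. PIK3R5, a regulatory subunit, measured 8.71 ± 0.06 with CIGB-300 and 7.17 ± 0.27 in untreated cells, a rise of 1.54 ± 0.13 (limma, adjusted p = 1.46e-07). PIK3CG, the catalytic subunit, measured 8.89 ± 0.10 and 9.70 ± 0.09 in the same groups, a fold change of -0.81 ± 0.083 (limma, adjusted p = 2.96e-06). KCNJ6, a potassium channel gene, had -0.68 ± 0.15 in HL-60 cells at 30 min (limma, adjusted p = 0.0763).

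The last list held receptors whose signals RGS proteins can shorten. Of 48 measured leukocyte receptor genes, 3 in HL-60 cells were higher and 1 lower at 30 min, against DEGs among 0.877% of all probe sets, while 7 were higher and 5 lower at 3 h, against 3.87%. In OCI-AML3 cells 1 was higher at 30 min, against 1.07%, and 2 were higher and 1 lower at 3 h, against 1.60%. The pathway lists were chosen with earlier results of these data known, so nothing is read from these counts. For the same reason the p of the receptor genes named is not independent of the choice. GPR18, a receptor for lipid mediators, rose in HL-60 cells by 2.74 ± 0.11 at 30 min and 3.23 ± 0.11 at 3 h (limma, adjusted p = 2.29e-11 and 5.05e-13). C3AR1, the receptor for a complement fragment, rose by 2.71 ± 0.24 in HL-60 cells and by 1.89 ± 0.24 in OCI-AML3 cells at 3 h (limma, adjusted p = 3.59e-07 and 0.000194). PTGER4, a prostaglandin receptor that acts through Gs, rose by 1.61 ± 0.12 in HL-60 cells at 3 h (limma, adjusted p = 2.16e-08), and GPR183, an oxysterol receptor, by 1.65 ± 0.16 in OCI-AML3 cells at 3 h (limma, adjusted p = 1.16e-05). The receptors named were picked by size of change and all rose. RGS2, higher in both lines, and RGS14 and RGS18, lower in HL-60 cells at 3 h, stood beside these rises and the lower receptor DEGs counted above. RGS18 was also lower in OCI-AML3 cells at 3 h, at -0.45, under the 1.5-fold limit.

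**Figure D5:**
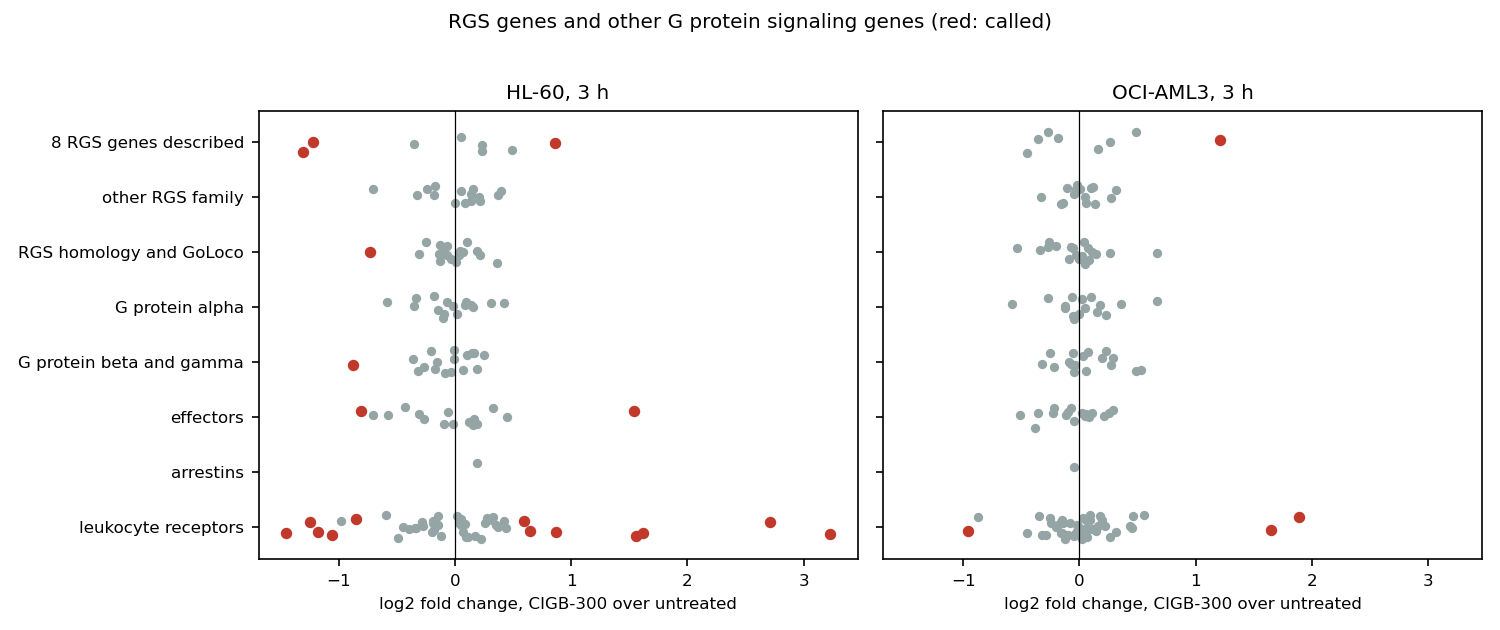
Log2 fold changes with CIGB-300 over untreated cells at 3 h for the 8 RGS genes and for lists of other genes of G protein signaling, HL-60 cells left and OCI-AML3 cells right, each point a gene and red points DEGs; points are spread vertically for legibility. In HL-60 cells RGS14, RGS18 and RGS2 are the red points of the top row, and 12 receptor genes are red in the bottom row.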

How the data were processed

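Clariom S HT arrays measured RNA from cultures of both lines. The authors adjusted the background by the RMA convolution model, normalized quantiles over arrays, averaged the probes of a gene with a robust model, averaged technical replicate arrays per sample and deposited log2 values; versions of RMA and limma are not given in the sources used here. No further normalization was applied, and the small number of arrays limits the precision. The table held 27189 features, from which 5741 controls were removed, leaving 21448 probe sets, 17709 of them with a single gene symbol.

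In limma 3.58.1 (R 4.3.3), 1 mean per group was fitted to all 23 arrays with default eBayes settings, for 12 comparisons: CIGB-300 against time-matched untreated cells, differences between these, and untreated cells against each other. Benjamini-Hochberg adjustment of p-values covered all probe sets. The fitting was tested on simulated data. The 8 RGS genes, the pathway and marker lists and the motifs were chosen with earlier results of these data known. Named were all 8 genes; from each pathway list, up to 4 DEGs of the comparisons with CIGB-300 by size of change; and, for RGS genes that were DEGs there, the 3 genes with the highest Pearson r of group means. Other marker genes looked at were those of erythroid, fibroblast and epithelial cells (median levels of 5.24 or lower) and MEIS1 and PBX3, whose medians were 3.50 and 6.66 in HL-60 cells, and 7.84 and 7.21 in OCI-AML3 cells. Alternatives covered the arrays fitted, a replicate block, variance settings, a filter on dim probe sets, 2 further normalizations, thresholds, array weights and each array left out. Promoter windows and gene order are from RefSeq (GRCh38.p14) and were read with Python 3.11.15 and pandas 2.3.3; figures were drawn with matplotlib 3.10.9.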

Additional observations from a re-analysis of the deposited data

Results flagged for a closer look

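For 2 genes the change with CIGB-300 differed between groups of the study, by the fit of the difference itself. RGS14 fell more in HL-60 than in OCI-AML3 cells at 3 h, by a difference of -1.04 on the log2 scale, and more at 3 h than at 30 min in HL-60 cells, by -1.11. RGS18 differed in the same directions, by -0.76 between the lines at 3 h and by -1.22 between the times in HL-60 cells. In each case 3 of 3 treated HL-60 arrays at 3 h lay below 3 of 3 untreated ones. The differences contain the changes on which the genes were chosen and are descriptions. The pairs of differences share the HL-60 arrays at 3 h.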

How the results depend on the processing

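RGS14 and RGS18 in HL-60 cells at 3 h remained DEGs under every alternative run and without any single array (-1.35 to -1.25 for RGS14 and -1.31 to -1.13 for RGS18), and RGS2 kept its direction throughout. RGS2 has a mean level under the median of all probe sets, so that a filter on dim probe sets left 0 of the 8 genes called in OCI-AML3 cells at both times and 0 in HL-60 cells at 30 min. It left 1 between untreated lines at 3 h. With a 2-fold limit, 0 were called in HL-60 cells at 30 min, 1 for the difference between lines at 3 h, 0 for untreated OCI-AML3 cells over time and 1 between untreated lines at 3 h. With an adjusted p under 0.05, untreated OCI-AML3 cells over time had 0. Leaving out single arrays gave 0 to 1 for the last and 0 to 1 for the difference between times in OCI-AML3 cells. Over all probe sets, the dim filter, the adjusted p and the 2-fold limit gave 90, 59 and 44 DEGs in HL-60 cells at 30 min, 86, 39 and 45 in OCI-AML3 cells at 30 min, and 171, 142 and 70 in OCI-AML3 cells at 3 h, with 235 at the 2-fold limit in HL-60 cells at 3 h. Trended and robust variances gave 3 in place of 2 for the difference between times in HL-60 cells. The cause was not tested beyond the construction of each setting.

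Changes that were not called turned sign. With array weights, RGS18 and RGS19 in HL-60 cells at 30 min had 0.0031 and 0.0080. Without single arrays, RGS1, RGS18 and RGS19 ran from -0.11 to 0.37, from -0.041 to 0.023 and from -0.035 to 0.065 there. RGS3, RGS14 and RGS18 ran from -0.14 to 0.069, from -0.032 to 0.058 and from -0.038 to 0.18 in OCI-AML3 cells at 30 min, and RGS3 from -0.039 to 0.34 at 3 h. With the untreated cells at 30 min as the control at 3 h, an alternative chosen after seeing the data, RGS3 and RGS16 had -0.036 and -0.25 in OCI-AML3 cells. A replicate block gave 3 RGS genes and 831 probe sets called in HL-60 cells at 3 h, against 3 and 830 without it, and changed no call of an RGS gene. Whether the shared numbers pair the samples is not settled by these values. Deviations of same-numbered arrays correlated only between -0.059 and 0.081, yet 15 of 23 arrays correlated best with their own number, a hint from the data only. Other probe sets of the 8 genes could not be tried, since each has 1.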
